A study of Mus musculus with 8 samples.

Results

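The collagen gene family was followed in the mouse lung after removal of the left lung. A gene was taken as a member when its symbol in the array annotation had the form of a collagen alpha chain (Col, type number, a, chain number), and 42 of the 18193 genes named on the arrays had such a symbol. Where several probe sets measured a member, which was so for 27 of the 42, the one with the highest mean over all arrays stood for it. Lung tissue came from female C57BL/6 mice of 10 to 12 weeks that had left unilateral pneumonectomy (PNY) or a thoracotomy without lung removal (SHAM). Anesthesia, ventilation and an opened chest were thus common to both groups. SHAM mice kept both lungs, whereas PNY tissue was of the remaining lung. Left lung tissue could therefore be present only in SHAM samples. Lungs were collected 6 hours, or 1, 3 or 7 days, after surgery. Each of the 8 arrays held pooled tissue of 8 mice, with 1 array per operation at each time point. Values are RMA levels on the log2 scale, on which a difference of 1 is a doubling. They are comparable between arrays for 1 gene but not between genes, and levels of 4 values below are always in the order of time (6 hours, then days 1, 3 and 7).

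Collagens are secreted proteins of 3 alpha chains wound into a triple helix, and chains of different genes often share a helix. Fibrillar collagens (types I, II, III, V, XI, XXIV and XXVII) form fibrils, and types I, III and V build the tension-bearing cables of alveolar septa, airways and vessels. Type IV forms the sheet-like network of basement membranes under epithelium and endothelium, types VIII and X form hexagonal networks, and type VI forms beaded filaments between cells and fibrils. The FACIT collagens (types IX, XII, XIV, XVI, XIX, XX and XXII) sit on fibril surfaces, the transmembrane collagens (XIII, XVII, XXIII and XXV) are anchored in cell membranes, and the multiplexins (XV and XVIII) lie in basement membrane zones. Type VII makes the anchoring fibrils of epithelia. In the lung most collagen RNA is known to come from fibroblasts and other mesenchymal cells, with type IV chains also made by endothelium and epithelium. By class the members were 11 fibrillar, 6 basement membrane network, 3 hexagonal network, 5 beaded filament, 9 FACIT, 4 transmembrane and 2 multiplexin genes, with Col7a1 and Col26a1 apart.

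Of the 42 genes, 27 had a mean level above 5.92, the median of all probe sets, and 15 lay below it. All 6 type IV chains and both multiplexins were above. Below it were Col2a1, Col5a3, Col11a1, Col11a2 and Col24a1 of the fibrillar class, Col9a1, Col9a2, Col19a1, Col20a1 and Col22a1 of the FACIT class, Col6a4, Col6a5, Col10a1, Col17a1 and Col26a1. The chains of cartilage collagens (types II, IX, X and XI) were thus nearly all below the median, here called dim, with Col9a3 just above it at 6.04. Probe sets of the same gene can differ in level, as for Col3a1 (12.6 and 9.19). A dim reading is therefore not by itself low expression. The highest mean level was that of Col3a1 at 12.6 and the lowest that of Col24a1 at 2.41.

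RefSeq promoter windows of build GRCm38.p6 were at hand for 33 of the 42 genes. The 250 bases before the annotated start are printed for 4 genes whose stretch touches no other annotated gene. Col1a2 and Col3a1 are fibrillar chains, Col6a1 is the beaded filament chain whose PNY arrays all lay above the SHAM arrays, and Col8a2 is the network chain with the lowest mean difference of all 42. Capitals mark letters found by a search on both strands for the CCAAT box (CCAAT), for the letters of a TATA box (TATAAA), for those of a GC box (GGGCGG) and for the core motif of TEAD factors (GGAATG), and sequences are in the direction of transcription. The stretches are chr6:4505368-4505617 (plus strand), chr1:45311288-45311537 (plus), chr10:76726045-76726294 (minus) and chr4:126286544-126286793 (plus).
Col1a2: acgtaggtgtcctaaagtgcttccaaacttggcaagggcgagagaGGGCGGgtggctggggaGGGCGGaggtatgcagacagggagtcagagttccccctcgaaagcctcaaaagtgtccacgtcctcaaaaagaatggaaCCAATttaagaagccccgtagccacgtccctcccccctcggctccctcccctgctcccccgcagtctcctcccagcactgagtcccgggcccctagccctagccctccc
Col3a1: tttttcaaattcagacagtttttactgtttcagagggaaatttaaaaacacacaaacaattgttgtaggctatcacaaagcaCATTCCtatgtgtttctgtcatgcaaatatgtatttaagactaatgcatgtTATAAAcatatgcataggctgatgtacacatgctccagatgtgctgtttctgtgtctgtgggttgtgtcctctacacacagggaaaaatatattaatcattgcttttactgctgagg
Col6a1: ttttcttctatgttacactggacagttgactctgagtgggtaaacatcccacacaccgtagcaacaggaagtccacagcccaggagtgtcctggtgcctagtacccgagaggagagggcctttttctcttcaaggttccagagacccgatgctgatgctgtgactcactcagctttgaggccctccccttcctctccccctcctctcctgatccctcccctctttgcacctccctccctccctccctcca
Col8a2: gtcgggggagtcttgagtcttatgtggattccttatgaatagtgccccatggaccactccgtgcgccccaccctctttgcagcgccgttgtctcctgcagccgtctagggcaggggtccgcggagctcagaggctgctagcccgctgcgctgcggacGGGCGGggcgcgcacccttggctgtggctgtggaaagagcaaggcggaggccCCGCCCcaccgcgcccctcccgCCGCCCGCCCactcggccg
The GC box, on either strand, stood in 21 of the 36 collagen windows (58.3%) and in 32.7% of all 32851 windows of the same length. The CCAAT box stood in 13 windows (36.1%, against 33.8% of all), the TATA letters in 5 (13.9%, against 12.4%) and the TEAD core in 4 (11.1%, against 12.6%). The matches describe letters and are not shown to be sites. Col3a1 held the TATA letters and the TEAD core and no GC box, Col1a2 held a CCAAT box and a pair of GC boxes, and Col8a2 held GC boxes only. In Col6a1 none of these letters lay in this window. Col4a1 and Col4a2, which are transcribed away from each other from neighbouring starts, share 78 bases of their 300-base windows, and their stretches are therefore not printed. No window was at hand for Col1a1, Col2a1, Col4a3, Col5a2, Col9a3, Col12a1, Col14a1, Col22a1 and Col26a1.

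Across the 4 time points, 15 of the 42 collagen genes (35.7%) were higher in PNY than in SHAM at every time point, whereas 9.36% of all genes were. None was lower at every time point (5.94% of all genes). The 15 were Col1a1, Col1a2, Col3a1, Col5a1, Col5a2, Col4a1, Col4a2, Col4a4, Col6a1, Col6a2, Col6a3, Col12a1, Col15a1, Col16a1 and the dim Col9a2. Among members above the median level the count was 14 of 27 (51.9%), beside 11.3% of the 12151 genes above it. The differences were small: the median over the 42 genes was 0.09, 0.06, 0.25 and 0.29 in order of time, where the median of all genes lay between -0.0013 and 0.017. For the 15 members below the median level the medians were -0.13, -0.02, 0.14 and 0.08.

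Rank products, the method of the study, combine the ranks of a gene's differences over the 16 pairs of a PNY and a SHAM array. With the 4 time points as replicates and thresholds of 0.001 on the permutation P-value and 1.5 on the fold change, the test was passed upward by 0.506% of all genes and downward by 0.0605%. No collagen gene passed it on its brightest probe set. Col5a2 came closest, with a fold change of 1.38 (permutation P = 0.00145), followed by Col6a3 (1.34, P = 0.00307), Col4a1 (1.34, P = 0.0036) and Col1a1 (1.34, P = 0.00367). Without the PNY array of 6 hours both Col5a2 and Col6a3 passed, with mean differences of 0.67 and 0.68. That setting keeps the SHAM array of 6 hours, in which both genes had their lowest level, and no collagen gene passed with both 6-hour arrays left out. No collagen gene and no gene at all (0%) reached a Benjamini-Hochberg adjusted p of 0.05 in limma, with or without the time point as a block (0%), and the adjusted p of every collagen gene was 1.0 without the block. At an unadjusted p of 0.05 limma gave 8 collagen genes higher in PNY (19%, against 1.28% of all genes) and 0 lower (0.89% of all genes). These were Col1a1, Col1a2, Col5a1, Col4a1, Col4a2, Col4a3, Col6a1 and Col12a1. With the time point as a replicate block the number was 13 (31%, against 3.8% of all genes), to which Col3a1, Col5a2, Col4a5, Col6a2 and Col6a3 were added, and 0 were lower (2.1% of all genes). The smallest unadjusted limma p-values with this block were those of Col4a1 (0.00105), Col5a1 (0.002), Col1a1 (0.00231), Col4a2 (0.00276) and Col5a2 (0.00297). Their adjusted p-values in the blocked limma fit were 0.718 to 0.825. Since each array is a pool from another time, these p-values say nothing of how single mice vary. The exact permutation p-values given below for single genes leave the pairing by time point out.

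**Figure D1:**
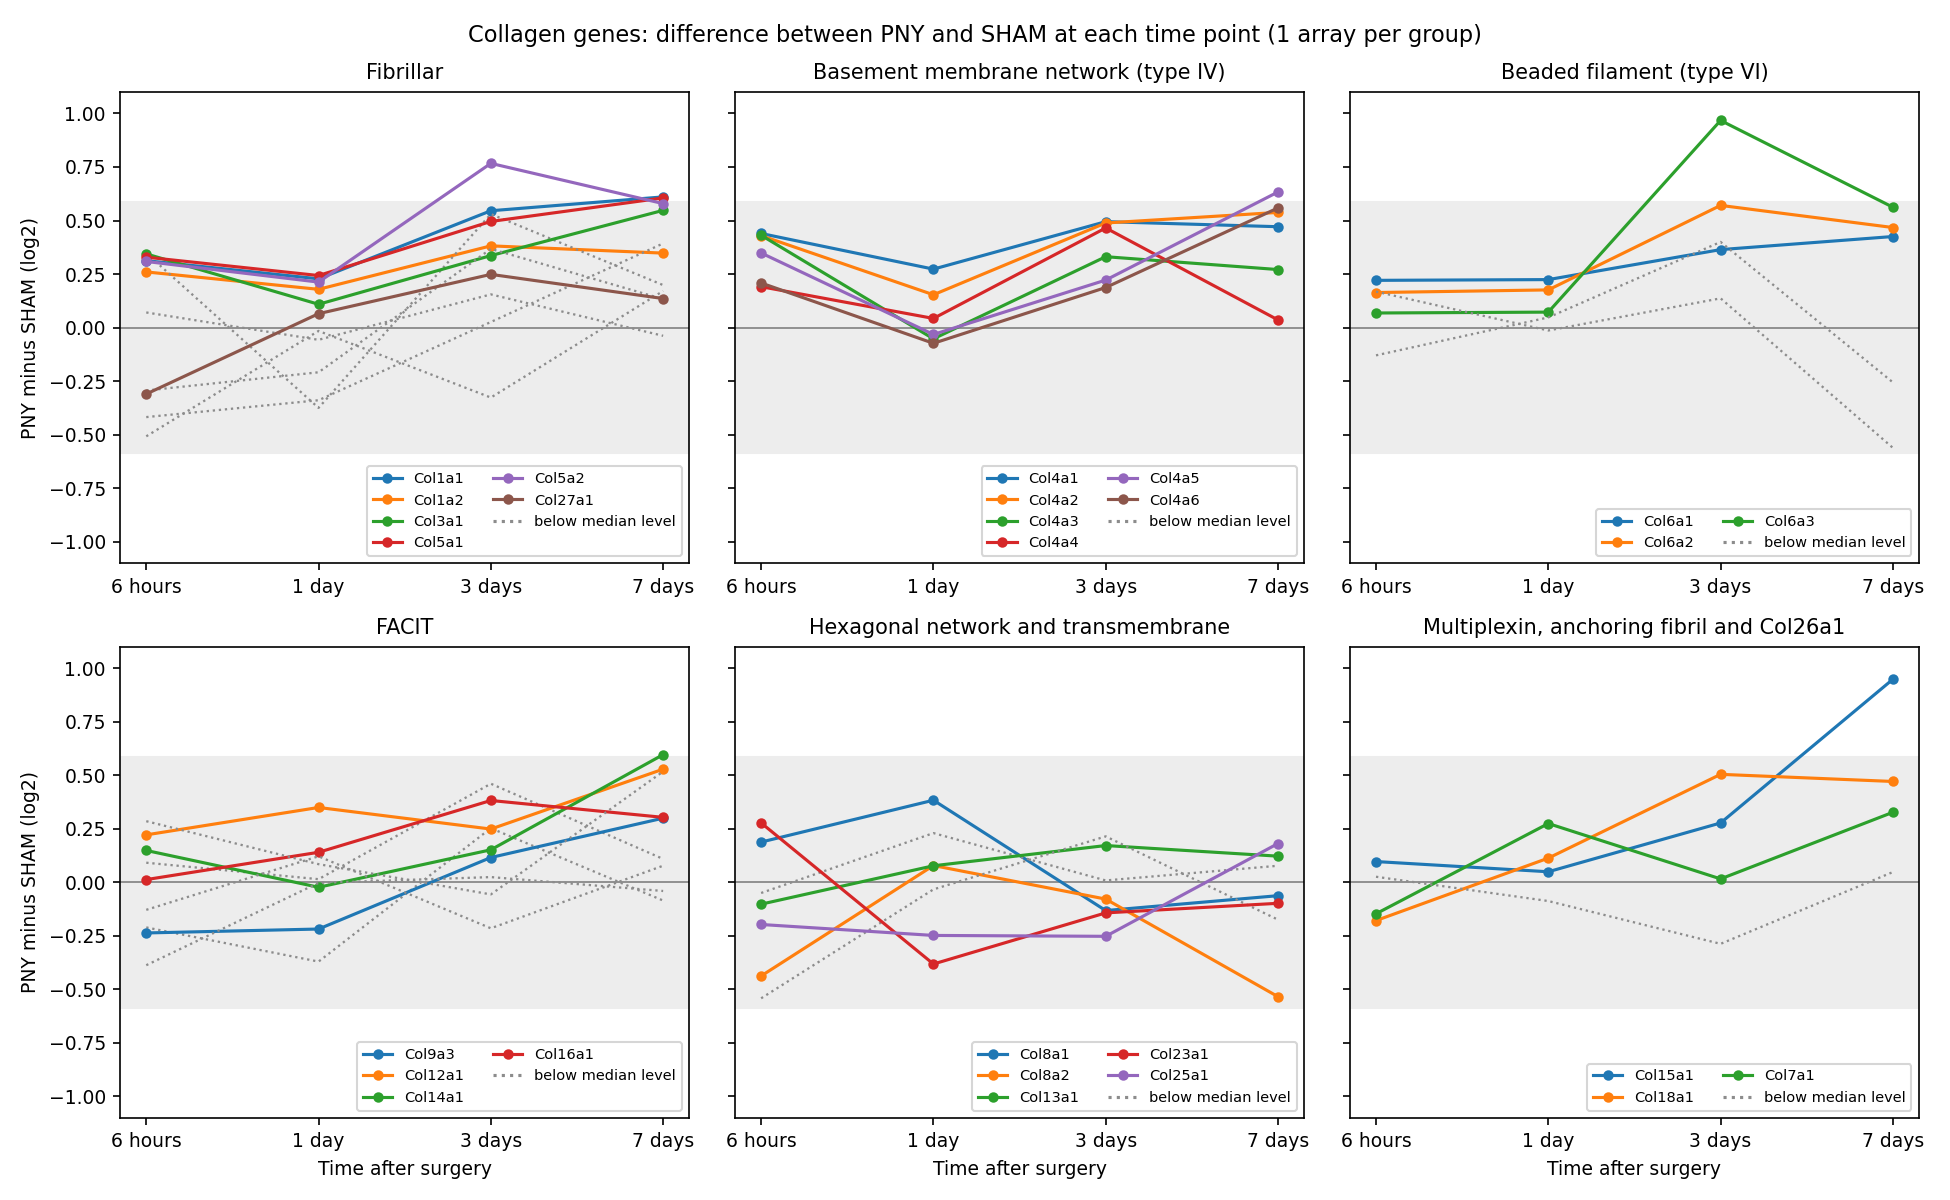
Difference between PNY and SHAM (log2) of each collagen gene at 4 time points, with 1 array per operation and time point, by class. Coloured lines are the 27 genes above the median level of all probe sets, dotted grey lines the 15 below it, and the shaded band spans a fold change of 1.5 either way. Lines of the fibrillar, type IV and type VI chains above the median level lie mostly above 0, and the 7 points past the band are at 3 and 7 days.

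Single time points held 1 array per operation and were described without a test. On its brightest probe set no collagen gene was 1.5-fold higher at 6 hours or at 1 day, where 0.682% and 1.88% of all genes were. At 3 days 2 collagen genes were (4.76%, against 1.14% of all genes), Col5a2 and Col6a3. At 7 days 5 were (11.9%, against 1.98%), namely Col1a1, Col5a1, Col4a5, Col14a1 and Col15a1. None was 1.5-fold lower on its brightest probe set at any time point, beside 1.04%, 1.09%, 0.511% and 1.48% of all genes at 6 hours and 1, 3 and 7 days.

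**Figure D2:**
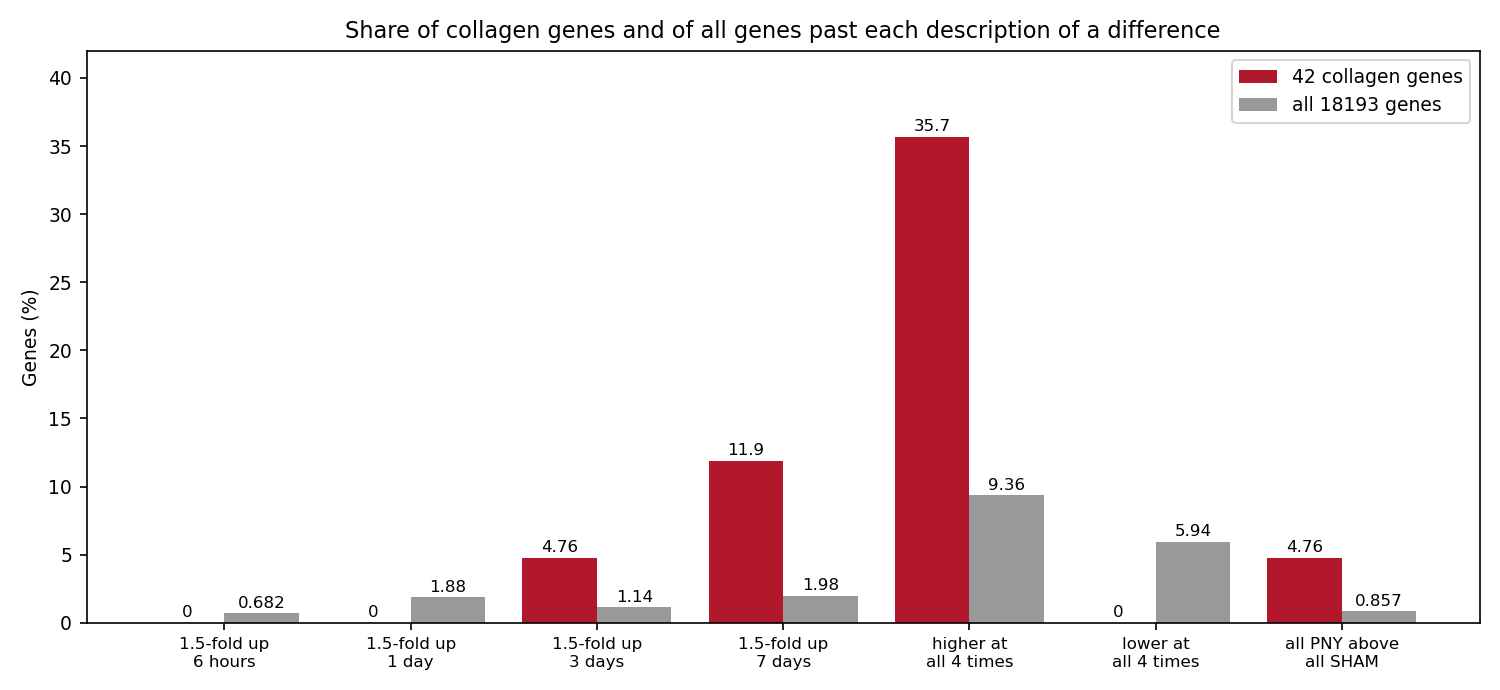
Percent of the 42 collagen genes (red bars) and of all 18193 genes (grey bars) that were at least 1.5-fold higher in PNY at each time point, higher or lower at all 4 time points, or without overlap between the groups. The collagen bars stand at 0 for 6 hours and 1 day and above the grey bars at 3 days (4.76%) and 7 days (11.9%).

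Among fibrillar collagens the chains of types I, III and V were higher in PNY at each time point except for Col5a3, and the differences at 7 days were larger than those at 1 day in all 5 genes. The median of the 11 fibrillar genes was 0.26, 0.07, 0.37 and 0.35 over time. For the 6 above the median level it was 0.31, 0.20, 0.44 and 0.56. Col1a1, the larger share of the type I helix, measured 10.02, 10.36, 10.64 and 10.77 in PNY and 9.70, 10.13, 10.10 and 10.16 in SHAM. The SHAM arrays of 1, 3 and 7 days lay close together, and of the PNY arrays only that of 6 hours lay within the range of SHAM. Its mean difference was 0.42 ± 0.18 (SD over 4 time points; exact permutation p = 0.114). Col1a2, its partner chain, measured 11.72, 11.92, 12.18 and 12.07 in PNY and 11.46, 11.74, 11.79 and 11.72 in SHAM, a mean difference of 0.29 ± 0.09 (exact permutation p = 0.0857). It had the smallest spread between time points among the type I, III and V chains.

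Col3a1, which forms the finer fibrils of distensible tissue, measured 12.13, 12.77, 13.04 and 13.11 in PNY and 11.79, 12.66, 12.70 and 12.56 in SHAM. Both groups were lowest at 6 hours, and the step from 6 hours to 1 day within either group was larger than any difference between the groups. The mean difference was 0.33 ± 0.18 (exact permutation p = 0.343). Its unadjusted limma p, blocked by time point, was 0.00811 (adjusted p = 0.882). The value was 0.12 without the SHAM array of 6 hours and 0.54 without the PNY array of 6 hours, and 0.33 without both. Type V chains nucleate type I fibrils. Col5a1 measured 7.70, 7.70, 7.96 and 8.45 in PNY and 7.37, 7.45, 7.47 and 7.85 in SHAM, a mean difference of 0.42 ± 0.16 (exact permutation p = 0.0857). Col5a2, which neighbours Col3a1 in the genome, measured 9.66, 10.26, 10.58 and 10.56 in PNY and 9.35, 10.04, 9.81 and 9.98 in SHAM. All PNY arrays but that of 6 hours were above every SHAM array, and the mean difference of 0.47 ± 0.25 was the largest of the family on the brightest probe sets (exact permutation p = 0.143). Its unadjusted limma p, blocked by time point, was 0.00297 (adjusted p = 0.825). The third type V chain did not follow: Col5a3 was dim, measured 5.38, 5.48, 6.30 and 6.33 in PNY and 5.67, 5.69, 5.93 and 6.19 in SHAM, and had a mean difference of -0.0003 ± 0.31 that turned sign under 8 alternatives. Col27a1, a fibrillar chain of cartilage and developing tissue, was lower in PNY at 6 hours (-0.31) and between 0.07 and 0.25 higher afterwards.

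The 6 type IV chains form 3 pairs of genes with neighbouring starts, and the pairs differed in their course. The class median was 0.39 at the first time point, 0.01 at 1 day, and 0.40 and 0.50 at the later ones. Col4a1 and Col4a2 make the alpha1.alpha1.alpha2 network found in nearly all basement membranes. Col4a1 measured 12.69, 12.25, 12.06 and 12.37 in PNY and 12.25, 11.98, 11.57 and 11.90 in SHAM. Col4a2 measured 11.36, 10.96, 10.86 and 11.29 in PNY and 10.93, 10.80, 10.37 and 10.75 in SHAM. In both genes each group was highest at 6 hours and lowest at 3 days, and PNY was above SHAM at every time point. The mean difference was 0.42 ± 0.10 for Col4a1 (exact permutation p = 0.0857) and 0.40 ± 0.17 for Col4a2 (exact permutation p = 0.0571).

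Col4a3, Col4a4 and Col4a5 make the second type IV network, that of alveolar and glomerular basement membranes. Col4a3 measured 10.11, 9.77, 9.86 and 9.89 in PNY and 9.68, 9.82, 9.53 and 9.62 in SHAM. Col4a4 measured 9.82, 9.87, 9.87 and 9.83 in PNY and 9.63, 9.83, 9.40 and 9.80 in SHAM. The PNY arrays of Col4a4 hardly varied (SD 0.02), and its difference of 0.47 at 3 days came with a low SHAM array. The mean differences were 0.25 ± 0.21 and 0.18 ± 0.20. Col4a5 measured 10.05, 10.20, 10.40 and 10.70 in PNY and 9.70, 10.23, 10.18 and 10.06 in SHAM, and Col4a6, its neighbour, measured 7.51, 7.45, 7.72 and 7.97 in PNY and 7.30, 7.53, 7.54 and 7.41 in SHAM. Both had their largest difference at 7 days, 0.63 and 0.56, and a difference near 0 at 1 day. Their mean differences were 0.29 ± 0.28 and 0.22 ± 0.26. At 1 day Col4a3, Col4a5 and Col4a6 were slightly lower in PNY, by 0.03 to 0.07.

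**Figure D3:**
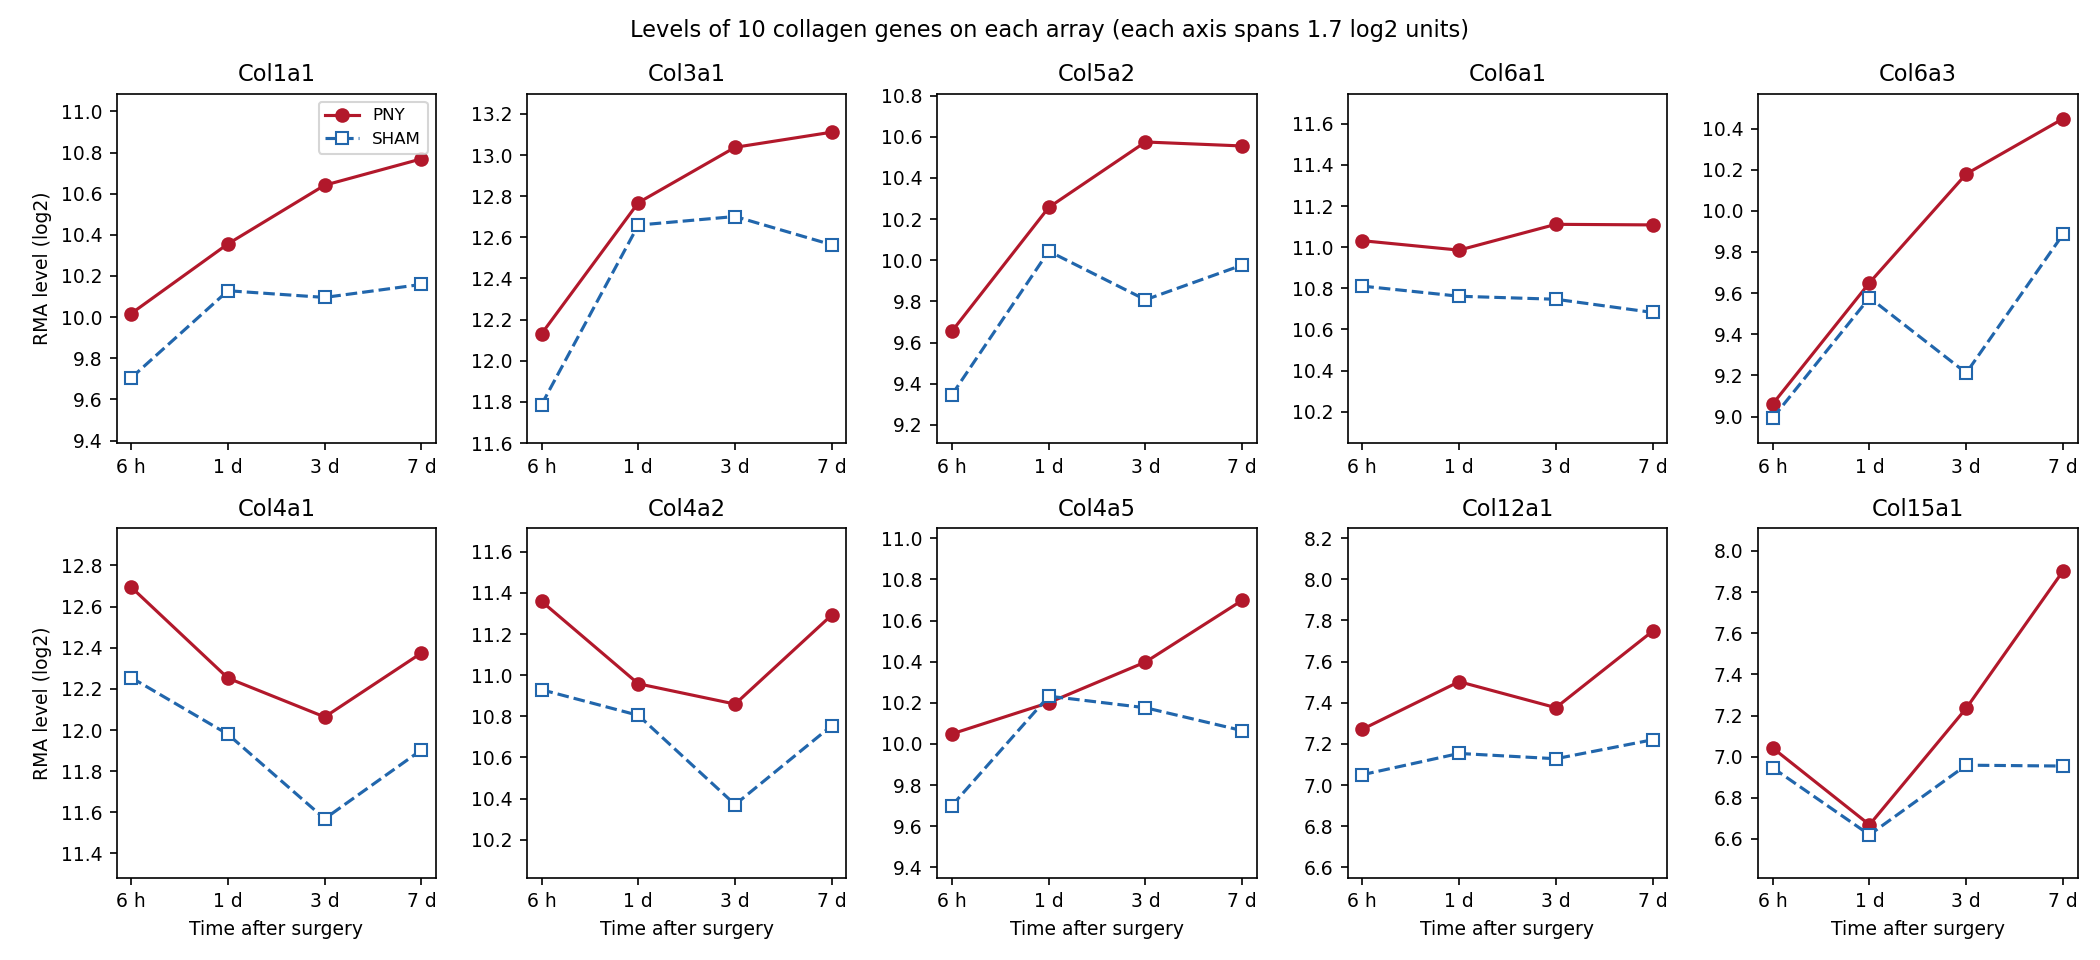
RMA levels (log2) of 10 collagen genes against time after surgery, with PNY as filled red circles and SHAM as open blue squares, 1 array each. Col1a1, Col3a1, Col5a2 and Col6a3 are lowest at 6 hours in both groups, Col4a1 and Col4a2 highest, and in Col6a1 and Col12a1 every PNY array lies above every SHAM array.

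In the beaded filament class the chains of the type VI helix, Col6a1, Col6a2 and Col6a3, were higher in PNY at each time point, and the Col6a4 and Col6a5 chains, both dim, were not. Col6a1 measured 11.03, 10.99, 11.11 and 11.11 in PNY and 10.81, 10.76, 10.75 and 10.68 in SHAM. All PNY arrays lay above all SHAM arrays, as for Col12a1 and for no other collagen gene (2 of 42, 4.76%, against 0.857% of all genes). The opposite order was held by 0 collagen genes and by 0.726% of all genes. The mean difference of Col6a1 was 0.31 ± 0.10, with an exact permutation p of 0.0286, the smallest that 4 against 4 arrays can give, and an adjusted p of 1.0 over all genes. Col6a2 measured 10.23, 10.68, 10.84 and 10.92 in PNY and 10.07, 10.51, 10.27 and 10.45 in SHAM, a mean difference of 0.34 ± 0.21. Col6a3, the longest of these chains, measured 9.06, 9.65, 10.18 and 10.45 in PNY and 8.99, 9.58, 9.21 and 9.89 in SHAM. Its groups were together at 6 hours and 1 day, with differences of 0.07 at both, and apart by 0.97 at 3 days and 0.56 at 7 days. The 3-day value, the largest of any time point among the brightest probe sets of the 42 genes, came with a SHAM array lower than those of 1 and 7 days. The mean difference was 0.42 ± 0.43 (exact permutation p = 0.286).

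Of the hexagonal network chains, found in vessel walls and, for type X, in growth cartilage, none was higher in PNY at all time points. Col8a2 measured 6.93, 7.39, 7.22 and 7.02 in PNY and 7.37, 7.31, 7.30 and 7.55 in SHAM. PNY was lower by 0.44 at 6 hours and by 0.53 at 7 days and close to SHAM between, a mean difference of -0.24 ± 0.29 (exact permutation p = 0.114). Col8a1 measured 6.61, 6.96, 6.59 and 6.74 in PNY and 6.42, 6.57, 6.72 and 6.80 in SHAM, and its mean difference of 0.09 ± 0.24 turned sign when its probe sets were averaged. The class medians were -0.05, 0.23, -0.08 and -0.06.

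The 9 FACIT genes had medians of 0.01 at both early time points, 0.15 at 3 days and 0.30 at 7 days. Col12a1, which links fibrils to their surroundings in tissues under tension, measured 7.27, 7.50, 7.38 and 7.75 in PNY and 7.05, 7.15, 7.13 and 7.22 in SHAM. The SHAM arrays lay close together, and the mean difference was 0.34 ± 0.14 (exact permutation p = 0.0286, adjusted p of 1.0 over all genes). A second probe set of Col12a1 measured 7.05, 7.46, 7.54 and 8.22 in PNY and 6.92, 6.77, 6.48 and 7.41 in SHAM. On it the fold change was 1.59 (permutation P = 0.000242), so that Col12a1 passed the rank product thresholds upward on this probe set and not on the slightly brighter one. It was the only one of the 82 collagen probe sets to do so (1.22%, against 0.315% of all probe sets), with an adjusted p of 1.0 in limma. Col14a1, a relative of Col12a1 on fibril surfaces, measured 8.09, 8.07, 8.70 and 9.02 in PNY and 7.94, 8.09, 8.55 and 8.42 in SHAM. The differences were 0.15 at 6 hours and at 3 days, -0.02 at 1 day and 0.60 at 7 days. Its mean difference was 0.22 ± 0.26. Col16a1 measured 7.62, 7.80, 7.97 and 8.08 in PNY and 7.60, 7.66, 7.59 and 7.77 in SHAM, a mean difference of 0.21 ± 0.17.

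Multiplexins carry ends that are cleaved off as restin (type XV) and endostatin (type XVIII). Col15a1 measured 7.04, 6.67, 7.24 and 7.90 in PNY and 6.95, 6.62, 6.96 and 6.95 in SHAM, so that the 7-day PNY array stood 0.95 above its SHAM array and the earlier pairs differed by 0.05 to 0.28. Col18a1 measured 7.72, 7.79, 8.32 and 8.55 in PNY and 7.90, 7.68, 7.82 and 8.08 in SHAM. It was lower in PNY at 6 hours (-0.18) and higher by 0.50 and 0.47 at 3 and 7 days. The mean differences were 0.34 ± 0.42 and 0.23 ± 0.32. Transmembrane collagens differed little. Col13a1, at cell adhesion sites, had a mean difference of 0.07 ± 0.12, Col23a1 of -0.09 ± 0.27 and Col25a1 of -0.13 ± 0.21. Col7a1 had 0.12 ± 0.22.

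Time after either operation was then compared. In both groups the 6-hour array was the lowest of its 4 for 11 collagen genes (26.2%, against 22.5% of all genes), among them Col1a1, Col1a2, Col3a1, Col5a2, Col6a2 and Col6a3. It was the highest for 4 (9.52%, against 14.7%), namely Col4a1 and Col4a2 and the dim Col6a4 and Col10a1. Neither share is far from that of all genes. When 3 and 7 days were set against 6 hours and 1 day over both operations, limma called 0.022% of all genes and no collagen gene at an adjusted p of 0.05. At an unadjusted p of 0.05, 9 collagen genes were higher at the later time points (21.4%, against 10.8% of all genes). Nearest to a call were the dim Col5a3 (later minus earlier 0.63 ± 0.10 SE, adjusted p = 0.12), Col14a1 (0.62 ± 0.11 SE, adjusted p = 0.139) and Col18a1 (0.42 ± 0.11 SE, adjusted p = 0.207). Col3a1 (0.52 ± 0.21 SE) and Col6a3 (0.61 ± 0.21 SE) had values as large with wider errors, and Col4a1 had -0.32 ± 0.15 SE.

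Whether the difference between operations itself changed with time was tested by the interaction. No gene (0%) passed at an adjusted p of 0.05, and 2 collagen genes (4.76%, against 2.46% of all genes) had an unadjusted limma p under 0.05. Col5a3 had a later difference larger than the earlier one by 0.50 ± 0.19 SE (adjusted p = 1.0) and Col18a1 by 0.52 ± 0.22 SE (adjusted p = 1.0). For Col6a3 the value was 0.69 ± 0.42 SE and for Col15a1 0.54 ± 0.33 SE. This fit did not pair the arrays by time point. Shifts shared by both operations within the earlier or the later time points therefore entered its error. By this fit the larger collagen differences at 3 and 7 days were not shown to differ from those at 6 hours and 1 day. A paired fit of the interaction was not run, so the question stays undecided here.

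Members with several probe sets had 40 beside the brightest ones, and 30 of these had a mean difference of the same sign as the brightest probe set of the gene. The 10 of opposite sign all lay below the median level of all probe sets, as did 21 of the 40. They belonged to Col8a1 (2 probe sets, -0.16 and -0.13), Col9a1, Col12a1, Col14a1, Col19a1 (2 probe sets), Col20a1, Col22a1 and Col26a1. The largest was that of Col14a1, with differences of 0.02, -0.69, -1.19 and 0.40 and a mean of -0.37 ± 0.71 (permutation P = 0.00153 downward), whereas the brightest probe set of this gene had 0.22. For 16 genes another probe set lay above the median level, 19 in all, and these 19 had the sign of the brightest one. At all 4 time points 14 of the 19 had the same sign. The second probe set of Col3a1 measured 8.46, 9.72, 9.75 and 9.97 in PNY and 8.17, 9.06, 8.99 and 9.44 in SHAM, and its differences of 0.29, 0.66, 0.77 and 0.53 were larger after 6 hours than those of the first except at 7 days. That of Col5a2 had differences of 0.36, 0.56, 0.63 and 0.65. Their fold changes of 1.48 (permutation P = 0.000248) and 1.47 (P = 0.00045) were past the P-value of the rank product and short of the fold change. A second probe set of Col1a1 had 0.20, 0.38, 1.01 and 0.07, so the size at single time points depends on the probe set. Over all 82 collagen probe sets, 1, 2, 8 and 10 were at least 1.5-fold higher in PNY in order of time (1.22%, 2.44%, 9.76% and 12.2%, against 0.877%, 2.19%, 1.18% and 1.57% of all probe sets). At 1 day these were the second probe sets of Col3a1 and Col12a1 (0.70), and at 6 hours a dim one of Col1a2 (0.67). At least 1.5-fold lower were 0, 2, 1 and 1 (0%, 2.44%, 1.22% and 1.22%, against 1.37%, 1.59%, 0.746% and 2.08%). These were the dim probe set of Col14a1 at 1 and 3 days, a dim one of Col5a3 at 1 day (-0.67) and one of Col23a1 above the median level at 7 days (-0.60).

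Genes that modify, export, trim, cross-link and bind collagens were examined as 6 lists, and none of their 61 measured members passed the rank product thresholds or an adjusted p of 0.05 in limma. At an unadjusted p of 0.05 limma gave 0 higher and 1 lower (Ogn), beside the 1.28% and 0.89% of all genes. With the time point as a block it gave 7 higher (Plod2, Serpinh1, Fkbp14, Lox, Loxl1, Aspn and Itga1), beside 3.8% of all genes, and 1 lower (Ogn), beside 2.1%. Of the 61, 14 exceeded SHAM at every time point (23%, against 9.36% of all genes). Among 17 genes of chain modification and folding the median mean difference was 0.10, and 5 of them exceeded SHAM throughout. Plod2, which hydroxylates the lysines used in cross-links, had differences of 0.23, 0.19, 0.63 and 0.57 (mean 0.40 ± 0.23, permutation P = 0.00575). Serpinh1, the collagen chaperone HSP47, had 0.10, 0.09, 0.29 and 0.45 (mean 0.23 ± 0.17). Of 5 cross-linking genes 3 exceeded SHAM throughout, with a median of 0.16. Lox, the lysyl oxidase, had 0.52, 0.08, 0.14 and 0.66 (mean 0.35 ± 0.29), and Loxl1 had 0.18, 0.45, 0.42 and 0.28 (mean 0.33 ± 0.13).

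The 8 genes of procollagen export, with a median of 0.03, and the 6 of procollagen processing, with a median of 0.07, lay closer to the 0.0073 of all genes. Sec13, a coat protein of export vesicles, had a mean of 0.10 ± 0.06 and Creb3l1, a regulator of secretory capacity, 0.08 ± 0.19. Pcolce, which enhances C-propeptide removal, had 0.14 ± 0.16 and its relative Pcolce2 had -0.12 ± 0.10. Fibril-binding proteoglycans and glycoproteins had a median of 0.03 over 14 genes and ran both ways. Asporin (Aspn) had differences of 0.14, 0.32, 0.12 and 1.19 (mean 0.44 ± 0.51). Osteoglycin (Ogn) was lower at every time point, by 0.17, 0.25, 0.28 and 0.41 (mean -0.28 ± 0.10). Its exact permutation p was 0.0286, the smallest this test can give, and its adjusted p in the blocked limma fit was 0.889. All its PNY arrays lay below all SHAM arrays, as for 0.726% of all genes. Among 11 collagen receptors (median 0.05), the endocytic receptor Mrc2 had -0.26, 0.27, 0.85 and 0.03 (mean 0.22 ± 0.47) and Itga1, the alpha subunit of a collagen-binding integrin, had 0.24, 0.20, 0.25 and 0.13 (mean 0.20 ± 0.06).

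**Figure D4:**
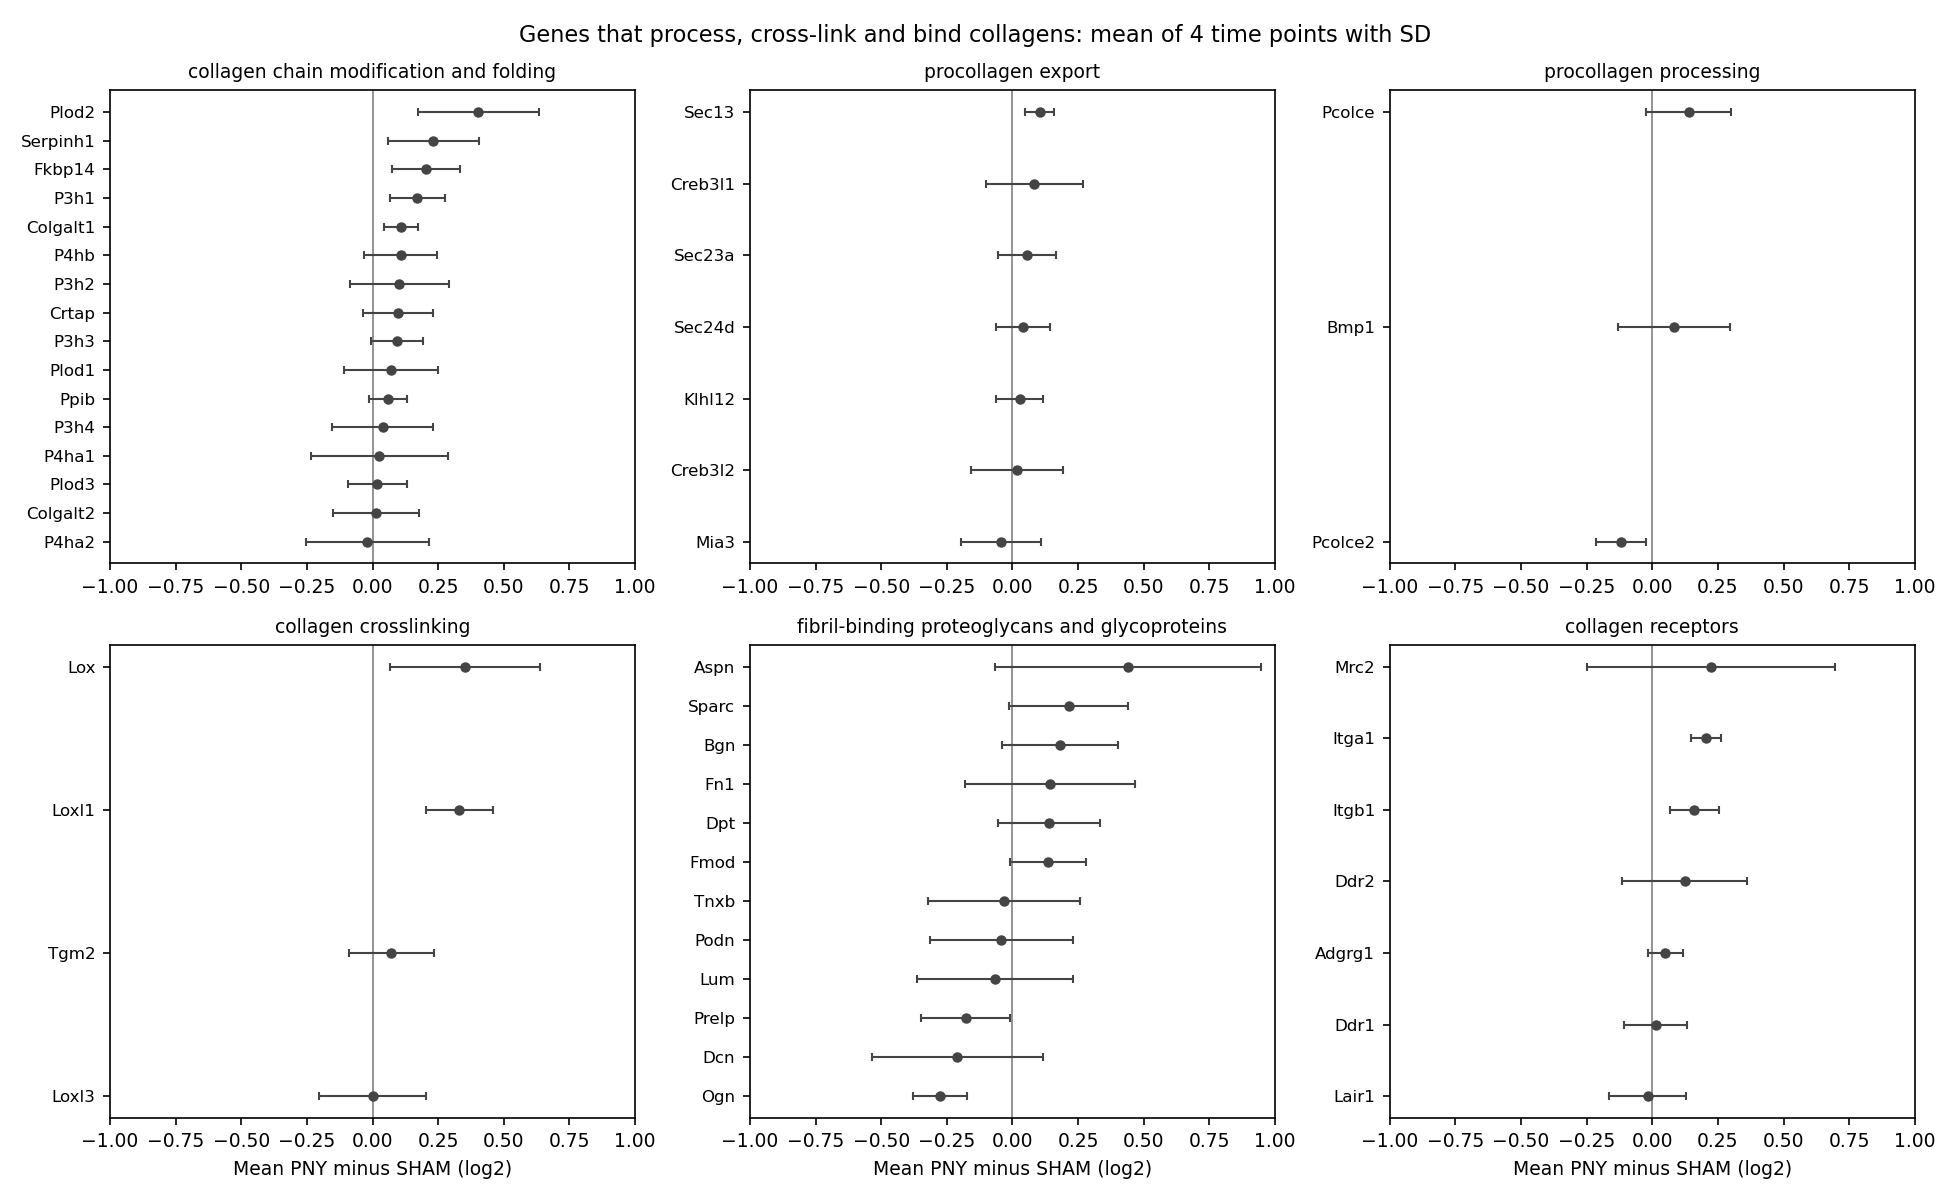
Mean difference between PNY and SHAM (log2, x axis) of collagen-related genes above the median level, one panel per list. Points are means over 4 time points and bars the SD over them. Plod2, Serpinh1, Lox, Loxl1 and Itga1 are among the genes to the right of 0 with bars that do not reach it. Ogn is among those to the left.

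Markers of other cells moved with some of these differences, and their part in them was not tested. In lung tissue of mixed cells, more or fewer cells of a type and more or less RNA per cell cannot be told apart. All 6 proliferation markers passed the rank product thresholds upward and were at least 1.5-fold higher at 3 and 7 days, with a median of 0.24 at 6 hours and 1.76 at 7 days. Of 6 myofibroblast and smooth muscle markers Actg2 passed (mean 0.68 ± 0.26, permutation P = 6.69e-05). In 3 of the 6 (Acta2, Actg2 and Cnn1) all PNY arrays lay above all SHAM arrays, as for 0.857% of all genes. The medians of the list were 0.22, 0.36, 0.43 and 0.19, and its mean level was 9.86 to 9.95 in PNY and 9.47 to 9.76 in SHAM. None of 8 lung fibroblast markers passed, their medians lay between -0.16 and 0.07, and the list's mean level was 9.21 to 9.66 in PNY and 9.16 to 9.65 in SHAM. None of the epithelial, pericyte, mesothelial, endothelial, cartilage, bone or adipocyte markers passed, with medians of the mean difference from -0.09 to 0.11. No skeletal muscle marker passed either. Of the thymocyte markers the dim Rag1 passed upward (permutation P = 0.00099), with differences of -0.24, 5.98, 0.24 and -0.34. Of the cardiac muscle markers Nppa passed upward (permutation P = 0.000109), with 0.03, 0.37, 0.47 and 2.22. At single time points mesothelial markers had a median of 0.35 at 6 hours, with Msln (0.78) and Wt1 (0.69) past 1.5-fold, and of -0.34 at 7 days, with Wt1 at -0.96. Adipocyte markers had a median of 0.51 at 6 hours, with Adipoq at 1.58 and Retn at 0.61, and of -0.29 at 3 days. At 1 day their median was 0.05, and Cidec was at least 1.5-fold lower (-0.67). At 7 days Adipoq was 0.60 higher, and Cidec, Lep and Retn were at -0.005, -0.17 and 0.18. Endothelial markers had a median of 0.25 at 6 hours and pericyte markers of 0.22 at 3 days. The 6 lung epithelial markers had mean levels of 13.4 to 13.6 on the 8 arrays. At 1 day 4 of 5 thymocyte markers were at least 1.5-fold higher in PNY, Rag1 by 5.98 on the log2 scale. At 7 days 5 of 8 skeletal muscle and 4 of 6 cardiac muscle markers were, Acta1 by 2.21 and Nppa by 2.22 on the log2 scale, and these are the arrays of 5 of the 7 collagen differences past 1.5-fold. The skeletal muscle markers ran the other way at 1 day, where 2 of the 8 were at least 1.5-fold lower in PNY, Acta1 at -1.57 and Tnnt3 at -0.87. Leaving out both 7-day arrays, the mean difference was 0.36 for Col1a1, 0.43 for Col5a2, 0.40 for Col4a1, 0.36 for Col5a1, 0.18 for Col4a5, 0.09 for Col14a1 and 0.14 for Col15a1.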

How the data were processed

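RNA of pooled lung tissue was hybridised to 8 Affymetrix mouse expression arrays. The deposited log2 values are the output of RMA (BioConductor, version not given in the sources used here), with which the authors corrected background, made the 8 distributions alike and reduced each probe set to a single number. The log base was inferred from the range of the values. Quantile normalization forces like distributions on the arrays, so a shift shared by most genes would not be seen. RMA values carry no counts, and 8 arrays limit the precision.

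Of 45101 probe sets, 64 controls were left out and 45037 were fitted without a filter. By GEO's platform annotation, which can be old, 34945 had 1 symbol, 932 several and 9160 none; only the first were named, and all 42 collagen symbols were found in the RefSeq gene table. Groups came from the labels. Rank products over 16 PNY and SHAM array pairs (1000 permutations, 100 for alternatives) were computed with numpy 2.4.6 and pandas 2.3.3 (Python 3.11.15) and checked on simulated data. limma 3.58.1 in R 4.3.3 was fitted over all probe sets with Benjamini-Hochberg adjustment. Permutation tests of single genes were exact and two-sided over the 70 ways to divide 8 arrays, unpaired. A course over time shared by both groups therefore adds to the spread in these tests. Figures were drawn with matplotlib 3.10.9.

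The labels give each time point to 1 PNY and 1 SHAM array. Deviations from the group means correlated within time points, with r from 0.295 to 0.605, and between time points with r from -0.508 to 0.340, the highest between the 7-day PNY and the 3-day SHAM array. The time point, given by the labels, was taken to pair the arrays. The limma fit with the time point as a block is given where it moved a count of calls and for some single genes.

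The members, classes, 6 collagen-related lists and 13 marker lists were chosen with earlier results of these data known and support nothing by themselves. Genes named were collagens above the median level past 1.5-fold at any time point, the 3 largest differences above it in each class, all chains of types I, III, IV, V and VI, and, per collagen-related list, members past the rank product thresholds or else the 2 above the median level with the largest difference. Col9a3, Col27a1, the dim members named by symbol, and the second probe sets were added after their values were seen. Fkbp10, Adamts2, Adamts14, Loxl2, Itga11, Ly6a, Bglap and Plin1 were not analysed here.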

Additional observations from a re-analysis of the deposited data

Results flagged for a closer look

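In 4 of 56 groups of 4 arrays, over the 28 named collagen genes, 1 array lay far from the other 3 by Dixon's criterion, which chance meets in about 1 of 20 groups. For Col1a1 the SHAM array of 6 hours read 9.705 where the others read 10.096 to 10.159. For Col3a1 the same array read 11.787 where the others read 12.564 to 12.701. For Col25a1 the PNY array of 1 day read 6.456 where the others read 6.749 to 6.789. For Col15a1 the SHAM array of 1 day read 6.62 where the others read 6.946 to 6.959. Each array holds another time point than its neighbours, so array and time cannot be told apart.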

How the results depend on the processing

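The count of collagen genes past the rank product thresholds was 0, and it was 1 (Col12a1) when any probe set of a gene could pass, an alternative added after the data were seen. Leaving out arrays singly or by time point gave 0 to 2, the 2 being Col5a2 and Col6a3 without the PNY array of 6 hours. The count was 0 under the other settings, including time point as a replicate block, no minimum fold change and a percentage of false positives under 0.05. Every limma count stayed at 0, with 0 for the replicate block and a trended, robust prior. The count higher at all time points, 15, ran from 12 to 15 when all arrays were kept. Leaving out arrays gave 15 to 20, but there fewer time points had to be met. The share of all genes under those settings is not given here. At the lower fold change tried, the numbers higher were 7, 2, 18 and 19 and the numbers lower 5, 4, 1 and 2 at 6 hours and 1, 3 and 7 days; at 2 none remained past it at 3 days (0) or 7 days (0). Averaging a gene's probe sets gave 4 higher at 3 days and 3 at 7 days, and a second quantile normalization gave 7 higher and 1 lower at 7 days. The median mean difference of the fibrillar genes, 0.18, was 0.38 for those above the median level and 0.057 to 0.33 when arrays were left out. For FACIT genes, 0.17, it was 0.019 with probe sets averaged and 0.036 to 0.22 when arrays were left out. Leaving out arrays moved the mean difference of 19 of the 28 named genes by over 1.5 times, for instance without the PNY array of 7 days (Col15a1 0.11, Col14a1 0.036, Col18a1 0.077, Col6a3 0.21, Col5a1 0.25). The 9 that moved less were Col1a1, Col1a2, Col4a1, Col4a2, Col4a3, Col5a2, Col6a1, Col6a2 and Col12a1. Leaving out a single array keeps the array of the other operation at that time point. Such a move therefore also holds any course over time shared by both groups. Values without both 7-day arrays are given above for Col15a1, Col14a1 and Col5a1. Of 28 named genes 21 kept their sign in every setting. Col5a3 turned to 0.001 with centred arrays and 0.0069 with a second quantile normalization, Col8a1 to -0.063 and Col14a1 to -0.0061 with probe sets averaged. When arrays were left out, Col5a3 ran from -0.15 to 0.17, Col8a1 from -0.0027 to 0.17, Col6a4 from -0.11 to 0.11, Col6a5 from -0.15 to 0.097, Col13a1 from -0.028 to 0.20 and Col23a1 from -0.21 to 0.012. The causes were not tested. With 4 pooled arrays per operation and 1 at each time point, differences of the size seen in most collagens, under 1.5-fold, were not separable from the spread between arrays by an adjusted p.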
